A study of Mus musculus with 3 samples.

Results

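Fatty acid and triglyceride synthesis was followed through 38 genes, of 37073 genes read on the arrays, in 3 cell fractions of mouse epididymal fat. The genes were taken from a list of enzymes, carriers and transcription factors of the pathway, and a gene was included when a probe of the array carried its name, which was the case for all 38. All 3 fractions came from epididymal fat of male C57/BL mice aged 20 weeks that was digested with collagenase. After a first spin at 9 g for 1 s, the lower phase gave the stromal vascular cells (SVC), and a second spin of the floating cells at 226 g for 3 min gave the small proliferative adipocytes (SPA) as sediment and the mature adipocytes (MA) as floating cells. SVC and SPA were grown in DMEM to 90% confluency before RNA was taken, whereas no culture is described for MA. Each fraction was measured on 1 array, so no difference below has a replicate check and no p-value can be given. In any comparison with MA, the kind of cell and its culture cannot be told apart. The titles of SVC and SPA also share a date that differs from that of MA, while the 3 arrays lay on 1 slide. The labels name no transgene, treatment or pooling of animals, and the number of mice behind an array is not given in the sources used here.

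White adipocytes store energy as triglyceride in a lipid droplet, and they can make the fatty acids themselves from glucose carbon. Mitochondrial citrate is exported and cleaved to acetyl-CoA, acetyl-CoA carboxylase turns this into malonyl-CoA, and fatty acid synthase builds palmitate from both with the reducing power of NADPH. Elongases and desaturases then lengthen the chain and place double bonds, and acyl-CoA synthetases activate the products. Acyltransferases attach them to glycerol 3-phosphate, a lipin removes the phosphate, and a diacylglycerol acyltransferase adds the last chain. The transcription factors SREBP1 and ChREBP, encoded by Srebf1 and Mlxipl, are known to drive many of these genes in fed liver and fat.

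Levels are given as log2 of the processed signal relative to the 75th percentile of the same array, so a level of 0 equals that percentile. A gene was read at its brightest probe over the 3 arrays. A ratio compares the same probe between fractions, and levels of different genes are not compared, since probes differ in brightness for the same amount of RNA. Members are described as changed from 5-fold, or 2.32 on the log2 scale, the fold used in the study. Spots repeated for the same probe on an array had a median SD of 0.04 to 0.05 on the log2 scale, which corresponds to an SD of 0.06 for a ratio between arrays. This covers the spread between spots and not that between animals or cultures.

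Of the 38 members, 36 were well above background on all 3 arrays, and the exceptions were Thrsp and Pck1 in SVC. Between 56.7% and 59.6% of all probes were well above background on an array, and no spot was saturated. The labels of the fractions were set beside marker genes. Most of the adipocyte markers are also in the study's own lists of 5-fold changes. Those lists came from these same arrays, so the counts are no independent check of the labels. Of 12 adipocyte markers, 8 were past 5-fold in SPA over SVC, and 11 were past it again in MA over SPA. Their summed level, with that percentile as the unit, was 10.4 for SVC, 93.6 for SPA and 3620 for MA. Such a sum is weighted towards the brightest probes of its list, and sums are set side by side between fractions only, not between lists. The exception between SPA and MA was Lep, at 4.23-fold. In these bulk samples, fewer cells of a type and less RNA per cell cannot be told apart.

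More members passed 5-fold in the comparisons with MA than in that of SPA with SVC. In MA, 15 of 38 members (39.5%) were at least 5-fold higher than in SPA, against 5.49% of all 23956 genes well above background on either array. No member was at least 5-fold lower, against 3.98% of all genes. The median log2 ratio of the members was 1.14, with a range from -1.53 to 10.22, and that of all genes was -0.07. In the comparison of MA with SVC, 16 members (42.1%) were at least 5-fold higher, with a background of 5.74%, and 0 were lower, with a background of 3.97%. The median over the members was 1.29 there and 0.00 over all genes. Both comparisons share the MA array, so they are not separate evidence. Between SPA and SVC, 2 members passed 5-fold upwards, Gpd1 and Thrsp, against 0.322% of all 22663 genes, and 1 member passed it downwards, Mogat2, against 0.353%. The median log2 ratio was 0.21 for the members and 0.07 for all genes.

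**Figure D1:**
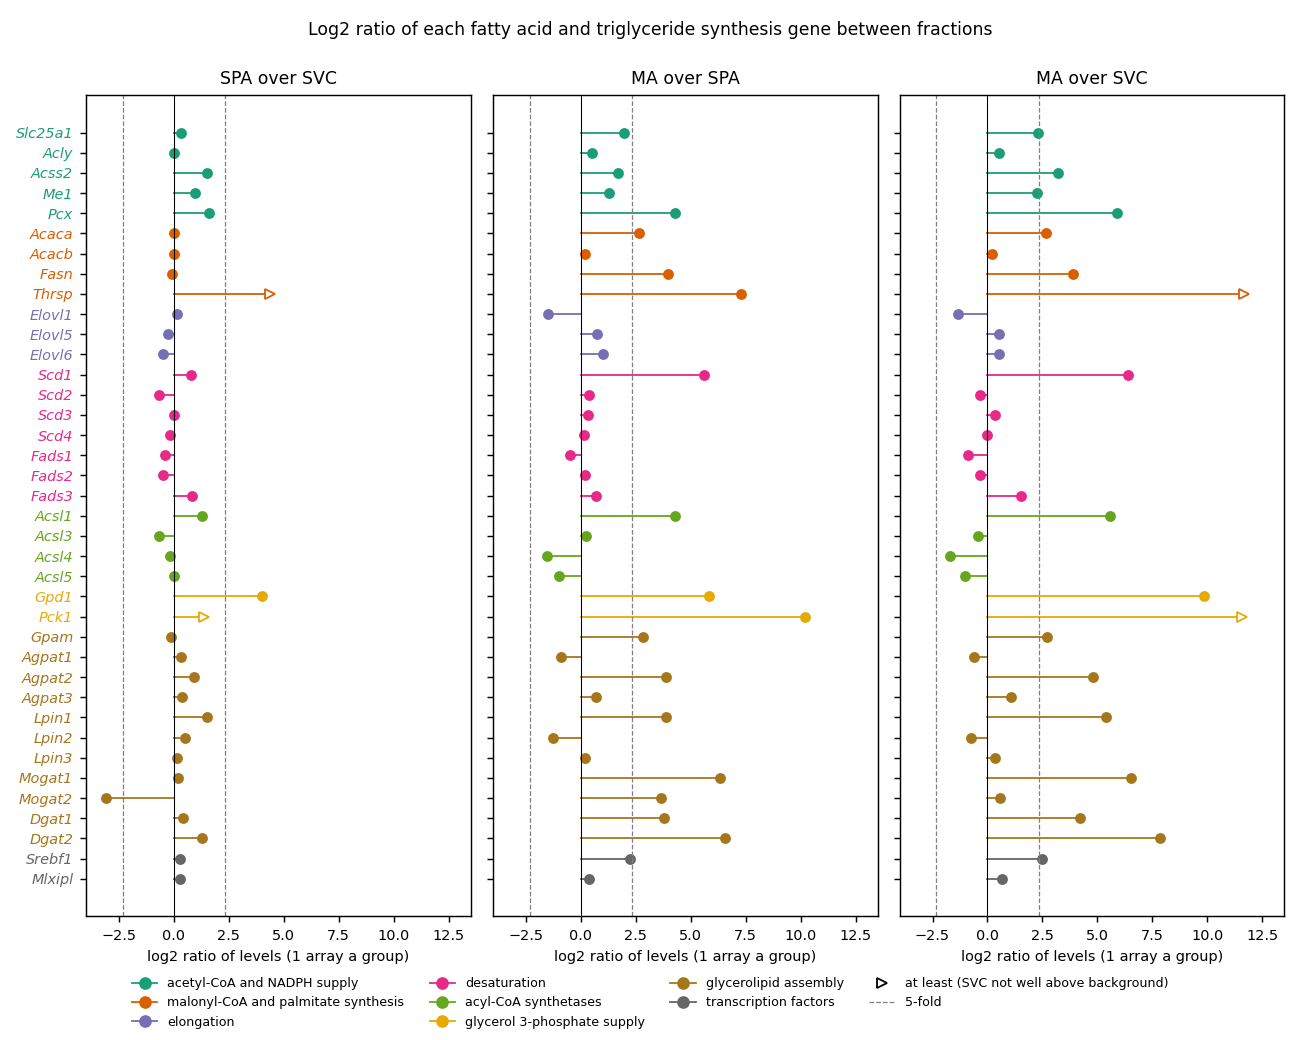
Log2 ratio of levels (horizontal axis) for each of the 38 genes, grouped and coloured by role, in SPA over SVC, MA over SPA and MA over SVC, with 1 array a group. Filled circles are ratios measured well above background on both arrays, open triangles are lower bounds, and dashed lines mark 5-fold. In SPA over SVC 2 genes lie beyond the right dashed line and 1 beyond the left, whereas 15 and 16 genes lie beyond the right line in the comparisons with MA.

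Markers of other cells also differed between the fractions. Of 8 erythrocyte genes, 6 were at least 5-fold higher in MA than in SPA, with a summed level of 0.403 in SVC, 0.437 in SPA and 736 in MA. Of 7 endothelial genes, 6 were at least 5-fold higher in MA, with summed levels of 3.08, 5.13 and 34.8. Of 8 lymphocyte genes, 5 were at least 5-fold higher in MA, with summed levels of 3.78, 3.95 and 6.35. The summed level of 10 macrophage genes was 605 in SVC, 710 in SPA and 210 in MA, but 2 of them (C1qa and C1qb) were at least 5-fold higher in MA than in SPA and 2 (Cd68 and Gpnmb) lower. For 7 smooth muscle and pericyte genes the sum was 727, 330 and 59.3, with Rgs5 and Cspg4 at least 5-fold higher in MA, Acta2 and Tagln lower and a median log2 ratio of 0.63. For 13 fibroblast and progenitor genes it was 586, 300 and 648. All 8 cell cycle genes were lower in MA than in SVC past 5-fold, and 7 of them were lower than in SPA. None of 5 epididymal epithelium genes was well above background on any array. The part of these cells in the values of the members was not tested.

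The members that were higher in MA belonged to several steps of the pathway. At least 5-fold higher in MA than in SPA were 3 of 4 genes of malonyl-CoA and palmitate synthesis, both genes that supply glycerol 3-phosphate and 7 of 11 genes of glycerolipid assembly. The same was true of 1 of 5 genes of acetyl-CoA and NADPH supply, 1 of 7 desaturases and 1 of 4 acyl-CoA synthetases. It held for 0 of 3 elongases and 0 of 2 transcription factors. Of the latter, Srebf1 lay just under the limit at 2.23, and 1 Mlxipl probe that was not read gave 5.69. The share over all genes was 5.49%, and a count of 0 or 1 in groups this small cannot be told from it. The median log2 ratio was 8.02 for glycerol 3-phosphate supply, 3.66 for glycerolipid assembly and 3.32 for malonyl-CoA and palmitate synthesis. It was 1.68 for acetyl-CoA and NADPH supply, 0.32 for desaturation and -0.37 for the acyl-CoA synthetases. These are descriptions of small groups, and the differences between the groups were not tested.

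**Figure D2:**
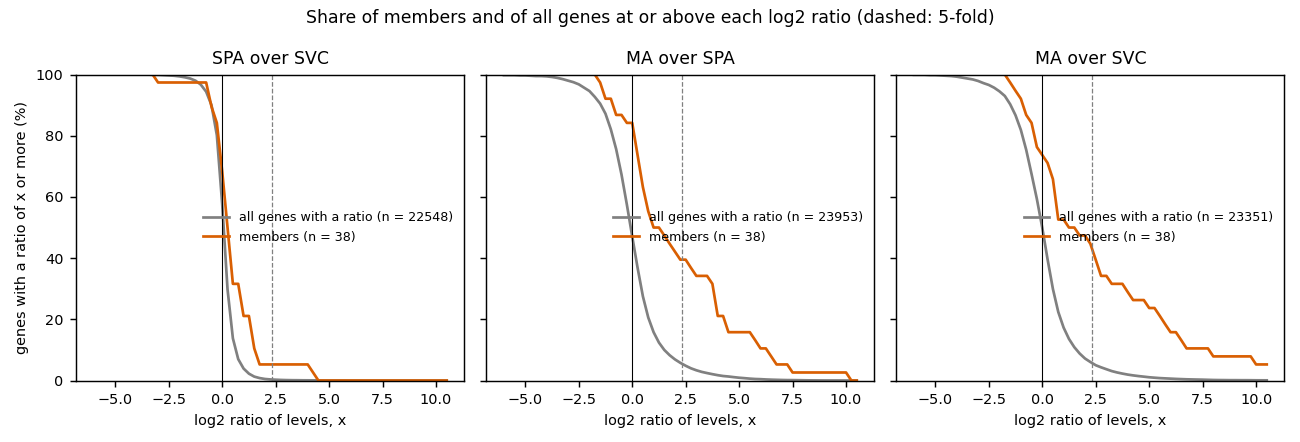
Percent of genes (vertical axis) with a log2 ratio of x or more (horizontal axis), for the 38 members and for all genes with a ratio in each comparison. The dashed line marks 5-fold, and 50% of the members against 15.8% of all genes had a log2 ratio of at least 1.00 in MA over SPA.

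Among the genes that supply acetyl-CoA and NADPH, Pcx changed most. Pcx encodes pyruvate carboxylase, which makes the oxaloacetate needed for citrate, and its probe lies on chromosome 19 from 4621610 to 4621669 in mm9. Its level was 1.14 in SVC, 2.74 in SPA and 7.05 in MA, which makes MA 19.8-fold higher than SPA and SPA 3.04-fold higher than SVC. Pcx has 1 probe, and the local background of its spot was marked as outlying in SPA. Slc25a1, the mitochondrial citrate carrier, had levels of 2.07, 2.41 and 4.38, in the order SVC, SPA and MA. Its rise to MA, 3.91-fold over SPA and 4.94-fold over SVC, stayed under 5-fold. Acly, the ATP-citrate lyase that releases acetyl-CoA in the cytosol, had levels of 4.17 in SVC, 4.19 in SPA and 4.71 in MA. The difference of 0.02 between SVC and SPA lies within the spread between spots, and MA was 1.43-fold over SPA. Me1, the malic enzyme that yields NADPH, had levels of 2.66, 3.62 and 4.90, a 1.94-fold and then a 2.44-fold step. Acss2, which makes acetyl-CoA from acetate, had levels of -0.64, 0.88 and 2.56. MA was 9.19-fold over SVC for Acss2, while each single step stayed under 5-fold. The other 3 probes of Acss2 gave log2 ratios of MA over SVC from 0.10 to 1.80.

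Fasn and Acaca, which encode fatty acid synthase and the cytosolic acetyl-CoA carboxylase, differed little between SVC and SPA and were higher in MA. The Fasn probe, on chromosome 11 from 120668460 to 120668519, had levels of 4.51 in SVC, 4.42 in SPA and 8.40 in MA. MA was thus 15.8-fold over SPA, and SPA differed from SVC by -0.10 on the log2 scale. The level of Acaca was 2.64 in SVC, 2.66 in SPA and 5.31 in MA, a 6.27-fold rise from SPA to MA at its brightest probe on chromosome 11 from 84215093 to 84215152. Of the other 6 Acaca probes, 5 gave log2 ratios of MA over SPA from 2.79 to 3.06, of which 2 are lower bounds. The remaining probe, annotated to an Ensembl transcript at the 5′ end of the locus, stayed under the background limit in MA and was lower there, with a log2 ratio of -0.96 or less.

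Thrsp, whose protein Spot 14 is known to favour lipogenesis in liver and fat, had the second largest ratio of MA over SPA. Its level was -0.57 in SPA and 6.70 in MA, and its spot in SVC was not well above background. MA was 155-fold over SPA, and SPA was at least 20.8-fold over SVC. That bound of 4.38 on the log2 scale fell to 2.41 with the normexp background correction. The other Thrsp probe gave log2 ratios of 8.16 for MA over SPA and at least 2.37 for SPA over SVC, so both probes place the gene past 5-fold at each step.

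Acacb, the acetyl-CoA carboxylase of the mitochondrial surface that controls fatty acid oxidation, depended on the probe. At the brightest probe, on chromosome 5 from 114667674 to 114667733, its level was 0.45 in SVC, 0.47 in SPA and 0.67 in MA. At a second probe of the same transcript, from 114700702 to 114700761, the levels were -3.19, -2.08 and 2.97. The log2 ratio of MA over SPA was therefore 0.19 at the former and 5.05 at the latter, and the remaining Acacb probe gave 0.75. The former starts at base 3778 of the transcript and the latter at base 8419, and neither shares a run of 16 bases with a probe of another gene. A stretch of 30 bases of each probe is shown to identify them, with the polyadenylation signal AATAAA in capitals where it occurs.
Acacb, probe at base 3778: aaacgaccatattcgacgtcctgcccactt
Acacb, probe at base 8419: aagaggctgctgaaagagctgcaaAATAAA
Which of the readings follows the Acacb mRNA was not tested.

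The 3 elongases stayed under 5-fold in every comparison. Elovl6, which extends palmitate to stearate, had levels of 1.00 in SVC, 0.52 in SPA and 1.51 in MA, and Elovl5, an elongase of polyunsaturated chains, had levels of 2.12, 1.87 and 2.63. Elovl1, which extends saturated chains to very long ones, had levels of 5.86, 5.97 and 4.50 and was 2.78-fold lower in MA than in SPA. Its second probe gave a log2 ratio of -1.28, close to the -1.48 of the first.

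Of the desaturases, Scd1 alone was past 5-fold at the probe read. Scd1 is the main stearoyl-CoA desaturase of mouse fat and makes oleate and palmitoleate, and its probe lies on chromosome 19 from 44469387 to 44469446. Its level was 0.96 in SVC, 1.72 in SPA and 7.34 in MA. MA was 49.2-fold over SPA, whereas SPA was 1.69-fold over SVC. In SPA the local background around its spot had been marked as an outlier, and the second Scd1 probe gave a log2 ratio of MA over SPA of 5.08. Scd2, a desaturase found in many tissues, had levels of 4.18, 3.48 and 3.86. Its ratio of MA over SPA was 1.31-fold.

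The genes Scd1 to Scd4 lie next to each other on chromosome 19 and resemble each other in sequence, so their probes are shown with the genes to which they are annotated. At the brightest Scd3 probe, the levels were -1.39 in SVC, -1.38 in SPA and -1.06 in MA. A second Scd3 probe, annotated to both Scd1 and Scd3, had levels of -3.78, -3.74 and 1.61, a log2 ratio of MA over SPA of 5.35. The other 2 Scd3 probes were not well above background on any array. The brightest Scd4 probe, with levels of 2.18, 2.02 and 2.17, is annotated to 4 genes (2610524H06Rik, Prss35, Scd4 and Ube2l6). The probe annotated to Scd4 alone had levels of -4.10, -4.15 and -4.52, with no ratio near 5-fold. Bases 1 to 30 of each of these probes read as follows.
Scd1: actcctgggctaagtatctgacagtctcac
Scd3, brightest probe: ataaagtcaaccataggtcaagaggcagag
Scd3, probe annotated to Scd1 and Scd3: aagacatccgtcctgaaatgaaagaagata
Scd4, brightest probe: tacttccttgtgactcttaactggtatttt
Scd4, probe annotated to Scd4 alone: tctgagaacacattgtgctgtgggggctcc
The probe annotated to both genes had a ratio between those of the Scd1 probes and far from that of the brightest Scd3 probe, and whether it read Scd1 RNA was not tested.

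The fatty acid desaturases Fads1 and Fads2, which act on polyunsaturated chains, were not higher in MA by any probe past 5-fold. Fads1 had levels of 1.04 in SVC, 0.63 in SPA and 0.14 in MA at its brightest probe, a log2 ratio of MA over SPA of -0.48. Its other probes gave -1.17 and -3.54, and the latter is annotated to a cDNA and not to a RefSeq transcript. Fads2 had levels of 1.14, 0.63 and 0.82, with a log2 ratio of MA over SPA of 0.19 at the brightest probe and values from -1.69 to -0.47 at the other 4, of which -1.69 is a bound. The sign of Fads2 in MA over SPA thus depends on the probe. Fads3, a related gene of less settled function, had levels of 4.37, 5.19 and 5.89, 1.62-fold higher in MA than in SPA.

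**Figure D3:**
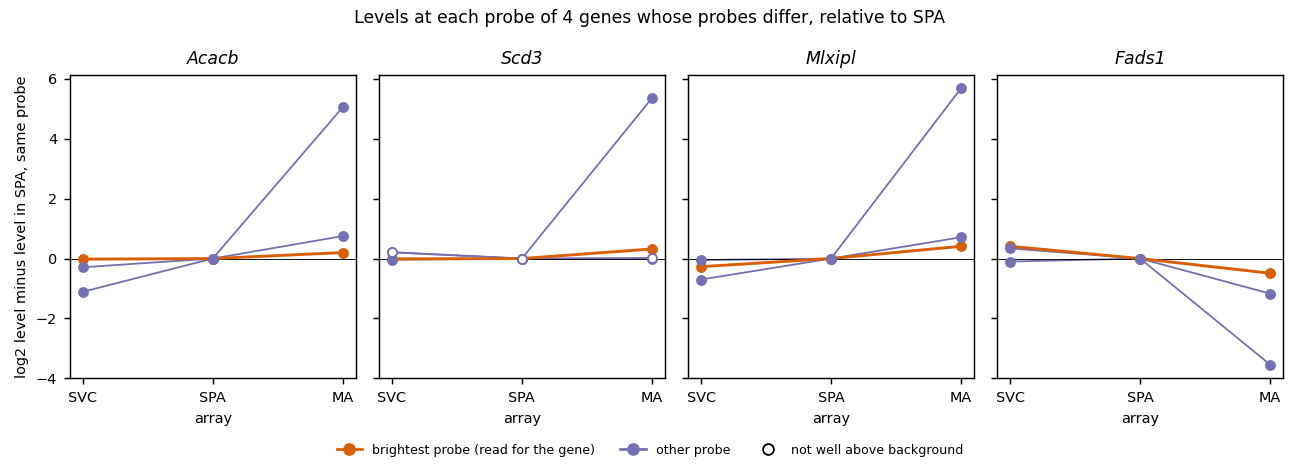
Log2 level of each probe of Acacb, Scd3, Mlxipl and Fads1 minus its level in SPA (vertical axis) on the arrays of SVC, SPA and MA. The orange line is the brightest probe, which was read for the gene, purple lines are the other probes, and open points are not well above background. In Acacb, Scd3 and Mlxipl 1 purple line rises by more than 5 in MA while the orange line rises by 0.40 at most, and in Fads1 1 purple line drops by 3.54.

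The 4 long-chain acyl-CoA synthetases went separate ways in MA. Acsl1, the main form of fat cells, had levels of 1.01 in SVC, 2.30 in SPA and 6.60 in MA, read on chromosome 8 from 47621232 to 47621291. SPA was 2.44-fold over SVC and MA was 19.7-fold over SPA, and the second measured probe gave a log2 ratio of 4.73 for MA over SPA. Acsl4, which prefers arachidonate, had levels of 3.19, 3.03 and 1.50 and was 2.88-fold lower in MA than in SPA. The other Acsl4 probes gave log2 ratios of -2.17 and -2.14, just short of 5-fold. In MA over SVC, 1 of these probes passed 5-fold downwards, with a log2 ratio of -2.39, against -1.69 at the probe read. Acsl5 had levels of 1.91, 1.89 and 0.90, 1.99-fold lower in MA than in SPA, with a log2 ratio of 0.07 at its second measured probe. Acsl3, linked to early lipid droplets, had levels of -2.04, -2.72 and -2.47, a 1.19-fold difference between MA and SPA.

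Both genes of glycerol 3-phosphate supply were higher in MA than in SPA. Gpd1, the cytosolic glycerol 3-phosphate dehydrogenase that makes the backbone from a glycolytic intermediate, had a level of -2.19 in SVC, 1.81 in SPA and 7.64 in MA. SPA was 16-fold over SVC and MA was 57.0-fold over SPA at a probe on chromosome 15 from 99555334 to 99555393. After normexp correction, SPA over SVC was 3.31 on the log2 scale, still past 5-fold. The second Gpd1 probe was well above background in MA alone and placed MA at least 4.91 above SPA on the log2 scale. Pck1, the cytosolic phosphoenolpyruvate carboxykinase used for glyceroneogenesis in fat, had a level of -3.60 in SPA and 6.62 in MA at its single probe, on chromosome 2 from 172984307 to 172984366. Its spot in SVC was not well above background, so SPA was at least 2.55-fold over SVC. Without the filter on dim probes, the log2 ratio of SPA over SVC was 3.15, past 5-fold. MA was 1190-fold over SPA, the largest ratio of any member in that comparison, and the log2 ratio of 10.22 became 8.80 with the normexp background correction.

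In glycerolipid assembly, Gpam and both diacylglycerol acyltransferases were higher in MA, and the Agpat and lipin families were split. Gpam, the mitochondrial glycerol-3-phosphate acyltransferase that adds the first chain, had levels of 2.09 in SVC, 1.96 in SPA and 4.79 in MA, 7.11-fold higher in MA than in SPA. Its second probe gave a log2 ratio of 2.81, next to 2.83 at the first. Agpat2, the acyltransferase of the second chain whose loss causes lipodystrophy, had levels of 2.65, 3.56 and 7.46. MA was 15.0-fold over SPA for Agpat2. Its relatives Agpat1 and Agpat3 had levels of 2.27, 2.58 and 1.67 and of 3.34, 3.70 and 4.41. Their log2 ratios of MA over SPA were -0.91 and 0.70, and the second probe of Agpat1 gave 0.22.

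The lipins, phosphatidate phosphatases that make diacylglycerol, also differed among themselves. Lpin1, the form lost in the fatty liver dystrophy mouse, had levels of -2.19 in SVC, -0.70 in SPA and 3.19 in MA. MA was 14.8-fold over SPA, and all 4 Lpin1 probes had a log2 ratio of at least 2.50. Lpin2 had levels of 0.58, 1.08 and -0.18 and was 2.40-fold lower in MA than in SPA, with all 6 probes below 0. Lpin3 had levels of 0.30, 0.44 and 0.63, within 1.14-fold between MA and SPA.

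Both diacylglycerol acyltransferases, the enzymes of the last step, were higher in MA. Dgat2, read on chromosome 7 from 106302215 to 106302274, had levels of 0.79 in SVC, 2.09 in SPA and 8.64 in MA. SPA was 2.46-fold over SVC and MA was 93.6-fold over SPA. Dgat1, which shares no close sequence with Dgat2, had levels of -0.48, -0.07 and 3.72, 13.8-fold higher in MA than in SPA. Each of them has 1 probe.

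The monoacylglycerol acyltransferases Mogat1 and Mogat2, relatives of Dgat2 that make diacylglycerol from monoacylglycerol, differed in their course. Mogat1 had levels of -4.03 in SVC, -3.87 in SPA and 2.48 in MA. MA was 81.1-fold over SPA for Mogat1, and SPA was 1.12-fold over SVC. The log2 ratio of 6.34 behind the former became 4.62 after normexp correction, and the median of its probes was 5.21. Mogat2 had levels of 1.35 in SVC, -1.76 in SPA and 1.90 in MA at a probe on chromosome 7 from 106367601 to 106367660. SPA was thus 8.64-fold under SVC and 12.6-fold under MA, while MA and SVC differed 1.46-fold. The second Mogat2 probe was not well above background on any array. Mogat2 was the only member that dipped in this way past 5-fold. Of 7 mesothelial markers, 5 also passed 5-fold downwards in SPA over SVC, and 4 were at least 5-fold higher in MA than in SPA. The summed level of these markers was 43.6 in SVC, 10.8 in SPA and 23.6 in MA. Other marker genes past 5-fold lower in SPA than in SVC were C1qa (-3.19 on the log2 scale) and C1qb (-2.48) of 10 macrophage genes, Cnn1 (-3.75) of 7 smooth muscle and pericyte genes and Dlk1 (-2.33) of 13 fibroblast and progenitor genes. The medians of these 3 lists in SPA over SVC were 0.00, -0.69 and -0.98. C1qa and C1qb were also at least 5-fold higher in MA than in SPA. The part of any of these cells in the Mogat2 values was not tested.

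Srebf1 and Mlxipl, the transcription factors of the list, were close to or under 5-fold at the probes read. Srebf1 had levels of 2.74 in SVC, 3.00 in SPA and 5.23 in MA. Its log2 ratio of 2.23 for MA over SPA lies just under the limit, and that of 2.49 for MA over SVC lies just over it. The probe does not tell the isoforms of SREBP1 apart. Mlxipl had levels of 0.97, 1.24 and 1.65 at its brightest probe, on chromosome 5 from 135614195 to 135614252. In that probe, 25 bases lie in runs of 16 or more that also occur in probes of 4 other genes. A second probe, annotated to a cDNA, shares such runs over 29 bases with probes of 16 other genes and gave a log2 ratio of 0.71 for MA over SPA. The third probe shares no such run and lies on the same chromosome from 135613705 to 135613764. Its levels were -2.80 in SVC, -2.10 in SPA and 3.58 in MA, a log2 ratio of MA over SPA of 5.69. The following stretches of 30 bases show the shared runs in capitals.
Mlxipl, brightest probe: ggtgaTGCACACCTTTAATCCCAGTACTTG
Mlxipl, cDNA probe: tACTACACAGAGAAACCCTGTCTCAAAAAA
Mlxipl, probe with no shared run: ggcatcttgcatgaatgtagatgtgtgtgt
The reading of Mlxipl therefore changes from under 5-fold to over 5-fold with the choice of probe.

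Across the members, the spread between probes of a gene was larger than that between spots. Of the 38 members, 30 have several probes, and the SD of the log2 ratio over the measured probes of a member had a median of 0.22 in SPA over SVC and 0.40 in MA over SPA. Counting a member when any of its probes passed, 18 members were at least 5-fold higher in MA than in SPA, against 6.17% of all genes under the same rule. The 3 added were Acacb, Scd3 and Mlxipl, and Scd3 passed only at the probe annotated to both Scd1 and Scd3. The 38 members have 96 probes, while the arrays hold 56605 probes for 37073 genes. A member thus had more chances to pass under this rule than a gene at large. In the other direction, Fads1 alone was at least 5-fold lower at 1 of its probes, against 4.65% of all genes.

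**Figure D4:**
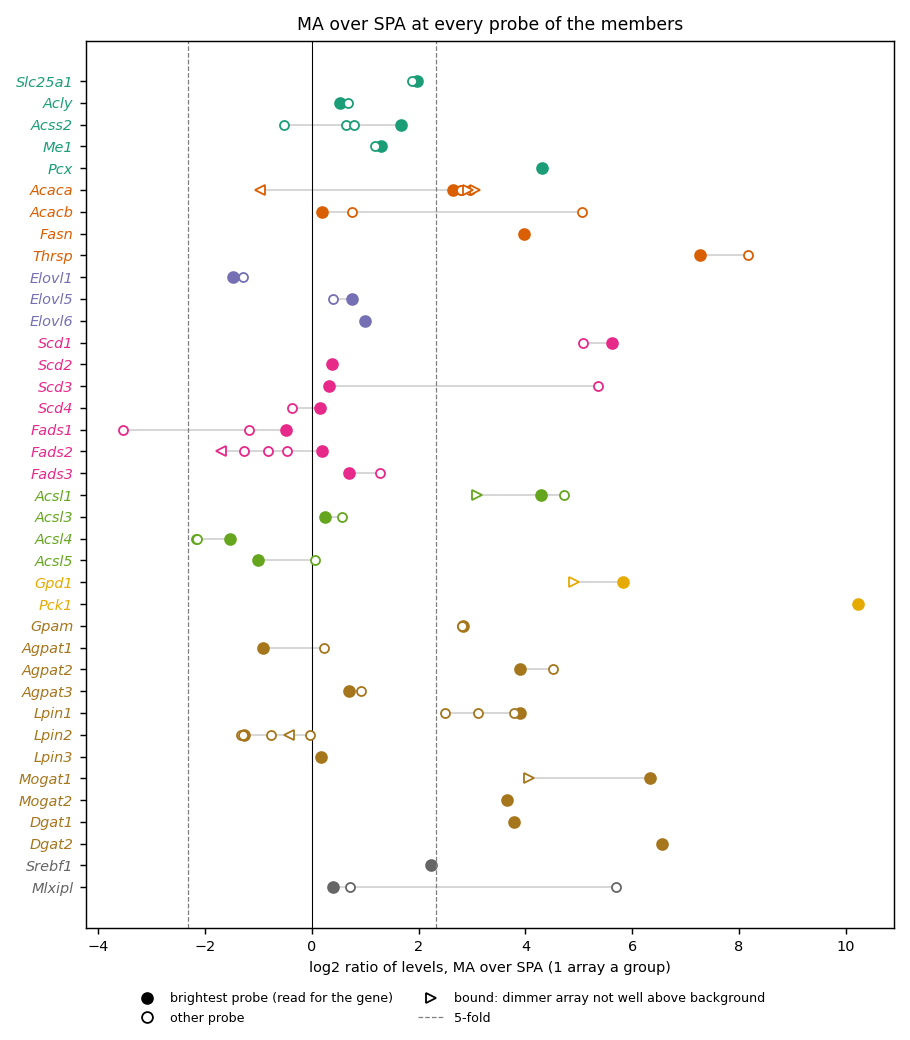
Log2 ratio of MA over SPA (horizontal axis) at every probe of the 38 genes that gave a ratio, coloured by role. Filled points are the brightest probe of a gene, open circles the other probes and triangles the bounds, with dashed lines at 5-fold. The probes of Acsl1, Agpat2, Gpam, Scd1 and Lpin1 lie to the right of 5-fold throughout, whereas those of Acacb, Scd3 and Mlxipl fall on both sides.

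How much of the log2 difference between SVC and MA lay between SVC and SPA differed between members. The fractions are separate samples and were not followed as stages, and a share on the log2 scale is not a share of the linear difference. For the 14 members that were measured well above background on all 3 arrays and were at least 5-fold higher in MA than in SVC, the share of the log2 rise that lay between SVC and SPA had a median of 14.2%. It was highest for Acss2, at 47.3%, and for Gpd1, at 40.7%. As the median of its probes, Acss2 had a log2 ratio of MA over SVC of 1.58, under 5-fold. For Lpin1 it was 27.7%, for Pcx 27.1%, for Acsl1 23.1% and for Dgat2 16.6%. In Mogat1 and Acaca it was 2.55% and 0.74%, and in Fasn and Gpam, which were slightly lower in SPA than in SVC, it was -2.48% and -4.78%. The 12 adipocyte markers had a median log2 ratio of 4.95 in SPA over SVC, against 0.21 for the members, and 5.19 in MA over SPA, against 1.14. Most of these markers were listed by the study as past 5-fold on these same arrays. The contrast therefore cannot be read as a trait of the members. From 2-fold, 8 members (21.1%) stood higher in SPA, against 3.9% of all genes, namely Thrsp, Gpd1, Pcx, Acss2, Lpin1, Pck1, Dgat2 and Acsl1. As the median of their probes, Lpin1 and Acss2 had log2 ratios of 0.95 and 0.89, under 2-fold, and Pck1 had 0.50 with the normexp background correction.

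Partner genes of the pathway were taken from 5 lists that hold 93 genes on the array. None of 87 genes with a ratio passed 5-fold in either direction in SPA over SVC. Over all genes, 0.322% passed it upwards and 0.353% downwards, so none of 87 is near those shares. In MA over SPA, 14 of 88 were at least 5-fold higher, beside the 5.49% of all genes, with a median log2 ratio of 0.30. A further 4 of 88 were at least 5-fold lower, a share near the 3.98% of all genes. In MA over SVC, 14 were higher, beside 5.74% of all genes, and 3 lower, near the 3.97% of all genes, with a median of 0.46. Among glycerolipid partners, Agpat9, named Gpat3 in RefSeq and encoding a glycerol-3-phosphate acyltransferase of the endoplasmic reticulum, had levels of -1.10 in SVC, 0.29 in SPA and 5.42 in MA. MA was 34.9-fold over SPA for Agpat9. The lipid droplet genes Fitm2 and Bscl2, the latter encoding seipin, were 8.71-fold and 5.47-fold higher in MA than in SPA. In citrate and NADPH supply, the mitochondrial pyruvate carrier genes Mpc1 and Mpc2 were 5.70-fold and 6.82-fold higher at the probes read. The lowest log2 ratio of their probes was 1.39 for Mpc1 and 0.33 for Mpc2, both under 5-fold. The dicarboxylate carrier gene Slc25a10 was 7.92-fold higher. Pdk4, whose kinase restrains pyruvate dehydrogenase, was 30.9-fold higher in MA than in SPA. The pentose phosphate genes G6pdx and Pgd, which also yield NADPH, had their highest level in SPA, and Pgd was 3.29-fold lower in MA. The log2 ratios of MA over SPA at the Pgd probes ran from -1.72 to -0.36.

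Of the activation and elongation partners, Dbi, which encodes the acyl-CoA binding protein, was 8.12-fold higher in MA than in SPA. Hacd2, a dehydratase of the elongation cycle, was 10.9-fold higher, and Acss3 at least 27.4-fold at the probe read. The lowest log2 value of the Acss3 probes was 1.78, under 5-fold. Among the 4 lower partners, the thioesterase genes Acot1 and Acot11 were 5.18-fold and 5.84-fold lower, and Elovl4, an elongase of very long chains, was at least 5.96-fold lower. Among regulators, Pparg, the nuclear receptor of fat cell formation, had levels of 1.49 in SVC, 3.02 in SPA and 5.58 in MA. MA was 5.88-fold over SPA for Pparg. Nr1h3, the liver X receptor alpha gene, was 5.34-fold, Insig1, which restrains SREBP processing, 6.59-fold, and Irs2, an insulin receptor substrate, 13.9-fold higher in MA. Trib3, a stress-induced pseudokinase gene, was the last of the 4, at 11.8-fold lower. Cebpa, a factor of terminal adipocyte differentiation, was 4.75-fold over SPA and 9.59-fold over SVC.

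Promoter sequence was available for 31 of the 38 members, as the 250 bases before each RefSeq gene start in GRCm38.p6. No window was available for Scd1, Dgat1, Dgat2, Gpd1 and Mogat2, all at least 5-fold higher in MA than in SPA. The same was true of Scd2 and Fads1, which were not called. The windows were searched on both strands for the E-box and the sterol regulatory element, and for the CCAAT box and the GC box, which are common in promoters. The E-box CACGTG occurred in a window of 5 members (16.1%), Elovl5, Lpin2, Mlxipl, Pcx and Slc25a1, and in 6.86% of all genes of the table. A sterol regulatory element spelled TCACNCCAC occurred in Acsl1 and Mlxipl, 6.45% of the members against 1.22% of all genes. The CCAAT box, spelled CCAAT, was found in 58.1% of the members and 37.5% of all genes, and the GC box GGGCGG in 61.3% and 35.4%. A gene counted when any of its windows held the motif. The 27025 genes of the table were not limited to those detected on the arrays, and the differences in share were not tested. Of the 10 members with a window that were at least 5-fold higher in MA than in SPA, 1 held the E-box, 1 the sterol element, 5 the CCAAT box and 5 the GC box. Of the other 21, 4, 1, 13 and 14 did. A match is a stretch of letters and not a bound site, and the arrays do not measure binding.

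The windows of Fasn and Thrsp are shown because both genes changed past 5-fold in MA. An Acsl1 window is shown because it holds the sterol element, and both Mlxipl windows because 1 of them does. Motif matches on either strand are in capitals. Fasn is on chr11:120824548-120824797 and Thrsp on chr7:97417551-97417800, both on the minus strand. The Acsl1 window shown is on chr8:46490716-46490965, and the Mlxipl starts are on chr5:135106641-135106890 and chr5:135089640-135089889, all on the plus strand.
Fasn: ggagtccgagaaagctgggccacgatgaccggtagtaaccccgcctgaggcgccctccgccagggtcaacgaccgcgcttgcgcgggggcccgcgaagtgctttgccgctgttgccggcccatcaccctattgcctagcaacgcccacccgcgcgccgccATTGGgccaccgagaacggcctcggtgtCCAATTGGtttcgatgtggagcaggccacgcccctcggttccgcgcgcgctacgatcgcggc
Thrsp: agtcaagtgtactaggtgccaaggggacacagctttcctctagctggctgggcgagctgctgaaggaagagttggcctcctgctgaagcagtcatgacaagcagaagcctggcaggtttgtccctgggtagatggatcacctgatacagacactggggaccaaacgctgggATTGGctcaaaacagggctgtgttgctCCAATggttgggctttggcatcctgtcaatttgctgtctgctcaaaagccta
Acsl1: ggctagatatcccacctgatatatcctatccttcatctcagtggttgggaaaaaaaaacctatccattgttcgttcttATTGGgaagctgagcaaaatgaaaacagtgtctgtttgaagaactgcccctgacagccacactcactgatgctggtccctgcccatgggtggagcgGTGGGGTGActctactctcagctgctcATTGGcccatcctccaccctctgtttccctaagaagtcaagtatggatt
Mlxipl, sterol element window: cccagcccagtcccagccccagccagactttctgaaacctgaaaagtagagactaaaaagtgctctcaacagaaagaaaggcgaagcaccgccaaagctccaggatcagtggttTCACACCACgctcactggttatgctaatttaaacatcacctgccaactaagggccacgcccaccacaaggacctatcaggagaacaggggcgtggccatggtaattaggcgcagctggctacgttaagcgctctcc
Mlxipl, E-box window: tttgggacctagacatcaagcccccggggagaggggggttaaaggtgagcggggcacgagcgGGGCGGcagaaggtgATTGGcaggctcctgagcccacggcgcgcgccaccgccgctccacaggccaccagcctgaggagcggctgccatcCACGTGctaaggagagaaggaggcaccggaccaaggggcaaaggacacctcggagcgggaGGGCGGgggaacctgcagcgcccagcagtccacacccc
Fasn holds 3 CCAAT matches, of which 2 overlap on opposite strands, and Thrsp holds 2. The Acsl1 window shown holds 1 sterol element between 2 CCAAT matches, starting 76 bases before the gene start. Another Acsl1 window, on chr8:46470787-46471036, is not shown and holds 4 GC boxes and none of the other motifs. The sterol element of Mlxipl starts 136 bases before the start in its window. The other Mlxipl window holds 1 E-box, 1 CCAAT match and 2 GC boxes.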

How the data were processed

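Per the labels, Cy3-labeled cRNA of SVC, SPA and MA was hybridised to 1 Agilent 1-colour array each. The authors deposited the intensity of each spot from Agilent Feature Extraction 10.7.3.1 as the background-subtracted processed signal, and a ratio of that signal to 1 constant per array, which departed from a constant by a relative 1.37e-06 at most (column medians 0.0743 in SVC, 0.0783 in SPA and 0.0789 in MA, on a linear scale, not centred on genes). Control spots and outlier spots were left out here. The processed signal was divided by its 75th percentile over the 59305 spots of an array that are not controls (430 in SVC, 439 in SPA, 366 in MA), put on the log2 scale and averaged over the spots of a probe, and a gene was read at its brightest probe. A ratio needed the brighter array to be well above background. Where the dimmer was not, the ratio is a bound against the higher of its own level and the lowest level well above background (-4.95 in SVC, -5.14 in SPA, -5.15 in MA). Precision is limited by the number of arrays. No test was run, and 9 alternative settings were tried, with another 2 chosen after seeing the data, normexp background correction with an offset of 50 among the former. The code was tested on simulated data. Every one of the 38 members is named. Of the partner lists, genes past 5-fold in some comparison were named, and G6pdx and Pgd were named after their values were seen. Gene names and probe positions (mm9) are those of the array annotation, and probes were set against RefSeq accessions. The members and lists were chosen with earlier results of these data known. The tools were R 4.3.3, limma 3.58.1, Python 3.11.15, numpy 2.4.6, pandas 2.3.3 and matplotlib 3.10.9.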

Additional observations from a re-analysis of the deposited data

How the results depend on the processing

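No paired analysis was possible because each group holds 1 array. Of 1247 values of members under 11 other settings, 1224 stayed on their side of 5-fold, 21 passed it and 2 fell below it, and no called value changed sign. The 2 that fell were MA over SVC of Gpam (2.32 at the probe farthest along the transcript) and of Acss2 (1.58 as the median of its probes). The number of members at least 5-fold higher lay between 14 and 18 in MA over SPA and between 14 and 20 in MA over SVC. With the probe of the largest ratio, 1 member was at least 5-fold lower in MA over SPA and 2 in MA over SVC, and the medians were 0.28 in SPA over SVC, 2.10 in MA over SPA and 2.47 in MA over SVC. That setting takes the most extreme probe of each gene, which favours large values. For the counts and medians under these other settings, no share or median over all genes is given here. Without the filter on dim probes, 3 members were at least 5-fold higher in SPA over SVC, Pck1 being added at 3.15. With probes well above background on both arrays, 1 member was, and the medians were 0.15 there and 0.87 in MA over SVC, since bounded members dropped out. The median in MA over SPA was 1.52 after quantile normalization, 1.22 with the percentile over detected probes, 1.00 without spots of outlying local background and 1.48 both with unshared probes and with the probe farthest along the transcript. In MA over SVC it was 1.58 after quantile normalization, 1.78 with the median of the probes, 1.06 without outlying spots and 1.88 with unshared probes and with the farthest probe. The last 2 settings were chosen after seeing the data. Without outlying spots, Pcx had no value. Signal over background limits Thrsp and Pck1 in SVC, which have bounds only.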
